A study of Mus musculus with 24 samples.

Results

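A set of 9 amino acid transporter genes was followed across every condition of the study: Slc7a1, Slc7a3, Slc7a5, Slc7a11, Slc3a2, Slc1a4, Slc1a5, Slc38a2 and Slc6a9. They were chosen by gene symbol, with every probe of each gene taken. Of these 9 genes, 8 were matched by a total of 21 probes, and 14 of those probes passed the filter on dim signal, at least 1 for each of the 8 genes, out of 13379 genes with such a probe on the array. No probe was annotated to Slc7a5, so it was not analysed here. The 24 arrays measured RNA of mouse embryonic fibroblasts (MEFs), 2 arrays in each of 12 groups. KO cells (Siah1a-/-::Siah2-/-, lacking 2 RING-finger ubiquitin ligases) and WT cells, from wild-type mice, were each grown under 5 stresses and untreated. A legend of the study gives KO cells used for its qPCR as heterozygous for Siah1a. The stresses were 12 h of oxygen deprivation (OD), 12 h of glucose deprivation (GD), 12 h of both together (OGD), 6 h of thapsigargin (TG), an inhibitor of the calcium pump of the endoplasmic reticulum, and 6 h of tunicamycin (TM), which blocks N-linked glycosylation there. The labels name no number of animals or separate cultures behind the duplicates, so p-values measure only the spread between these arrays, which may be technical. The culture methods of the study give a medium with nonessential amino acids and β-mercaptoethanol for MEFs, and a glucose-free medium with dialyzed serum for GD and OGD.

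Amino acid transporters of the plasma membrane set how fast a cell can take up building blocks for protein and glutathione. Many of their genes are targets of ATF4, the transcription factor made when the kinases PERK or GCN2 phosphorylate the translation factor eIF2α, so that stress in the endoplasmic reticulum and shortage of amino acids share part of their gene response. Slc3a2 encodes 4F2hc (CD98), the heavy chain that carries several SLC7 light chains to the cell surface. One of these light chains is xCT, the product of Slc7a11, which exchanges glutamate for cystine and so feeds glutathione synthesis. Slc7a5 encodes another, LAT1, which carries large neutral amino acids. Slc7a1 and Slc7a3 encode CAT-1 and CAT-3, which carry arginine and lysine without a heavy chain. Slc1a4 (ASCT1) and Slc1a5 (ASCT2) encode exchangers of small neutral amino acids, and of glutamine for ASCT2. Slc38a2 encodes SNAT2, a sodium-coupled importer of neutral amino acids, and Slc6a9 encodes GLYT1, a sodium- and chloride-coupled importer of glycine.

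Values are the deposited normalized intensities, in arbitrary units of brightness. A background level of 233 was set from the values themselves, and a probe at or below it on both arrays of a group has only a bound there. The check of the labels gave Siah1a at 178 to 303 on the 12 KO arrays and 1155 to 1839 on the 12 WT arrays, called lower in KO cells in all 6 conditions. Siah2 was at 239 to 718 on KO arrays and 505 to 2014 on WT arrays, ranges that overlap, and it was called lower in KO cells untreated and under TG and TM only. Whether the Siah2 probe lies in the deleted part is not given in the sources used here. Of 12 fibroblast markers, 11 were measured, and 9 to 11 of them were above the background level on each array. The Pearson correlation between the duplicates over all probes, on the log2 scale, ran between 0.964 (WT OGD) and 0.994 (WT TG), and 8.53% of kept probes lay at least 2-fold apart between the WT OGD arrays. By the array labels printed in the study, the untreated and GD arrays of both genotypes, WT OD and WT OGD shared 1 pair of BeadChips, and KO OD, KO OGD and all TG and TM arrays shared another. Comparisons of TG or TM with untreated cells, of KO OD or KO OGD with untreated KO cells, and of KO with WT cells under OD and OGD therefore cross chips, and in them chip and group cannot be told apart. A gene was called when the Benjamini-Hochberg adjusted p of the limma fit over all kept probes was under 0.05 and the change was at least 2-fold. Each gene was read on its brightest kept probe by mean signal unless another probe is named, and ± gives the standard error of a difference with 2 arrays in each group. Where an array is left out, the lone array of its group is assumed to vary like those of the other groups. Within a condition, statements that arrays did not overlap compare 2 arrays with 2, and the share over all genes was not counted. Even Slc1a5, at background, had separated arrays in 2 of 6 comparisons between genotypes and in 3 of 5 of stressed with untreated WT cells.

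Under ER stress, 4 of the 8 measured genes rose in both genotypes, and they were the same 4 in KO and WT cells and under TG and TM: Slc7a11, Slc3a2, Slc1a4 and Slc6a9. In KO cells, 3.01% of all genes were called higher under TG and 1.82% under TM, and in WT cells 2.11% and 1.55%. Under OGD, Slc3a2 and Slc6a9 rose in KO cells, 2 of 8, where 0.994% of genes were called higher. In WT cells under OGD, Slc3a2, Slc6a9 and Slc7a3 rose, 3 of 8, where 2.17% of genes were called higher. The median log2 change over the 8 genes was 0.58 for OGD, 1.36 for TG and 1.10 for TM in KO cells, and 1.17, 1.19 and 1.32 in WT cells, while the median over all genes lay between -0.02 and 0.00 in all 6 comparisons. Among markers of other cell types, Sox10 of the neural list was called lower in KO cells under both ER stresses: it read 173 and 176 under TG and 187 and 172 under TM, against 1357 and 807 in untreated KO cells, and was not above the background level in WT cells. The sum of Sox10 and Map2, the 2 measured neural markers of 6, was 2270.3 to 2479.7 under TG and 2243 to 2671 under TM in KO cells, against 4024 to 4476 untreated, and its part in these results was not tested. All 5 OGD calls were lost when only the arrays compared entered the fit. No gene of the set was called lower in any of the 10 comparisons with untreated cells.

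Under loss of oxygen or of glucose alone, none of the 8 genes was called by limma. Their log2 changes ran over -0.07 to 0.79 under OD and -0.15 to 0.20 under GD in KO cells, and over -0.13 to 0.79 under OD and -0.22 to 0.49 under GD in WT cells. At an unadjusted p under 0.05, 2 of these 32 pairs passed, both Slc1a4 under OD. Few genes of the array were called in either direction there: 0.292% under OD and 0.00747% under GD in KO cells, and 0.247% under OD and 0.00747% under GD in WT cells.

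**Figure D1:**
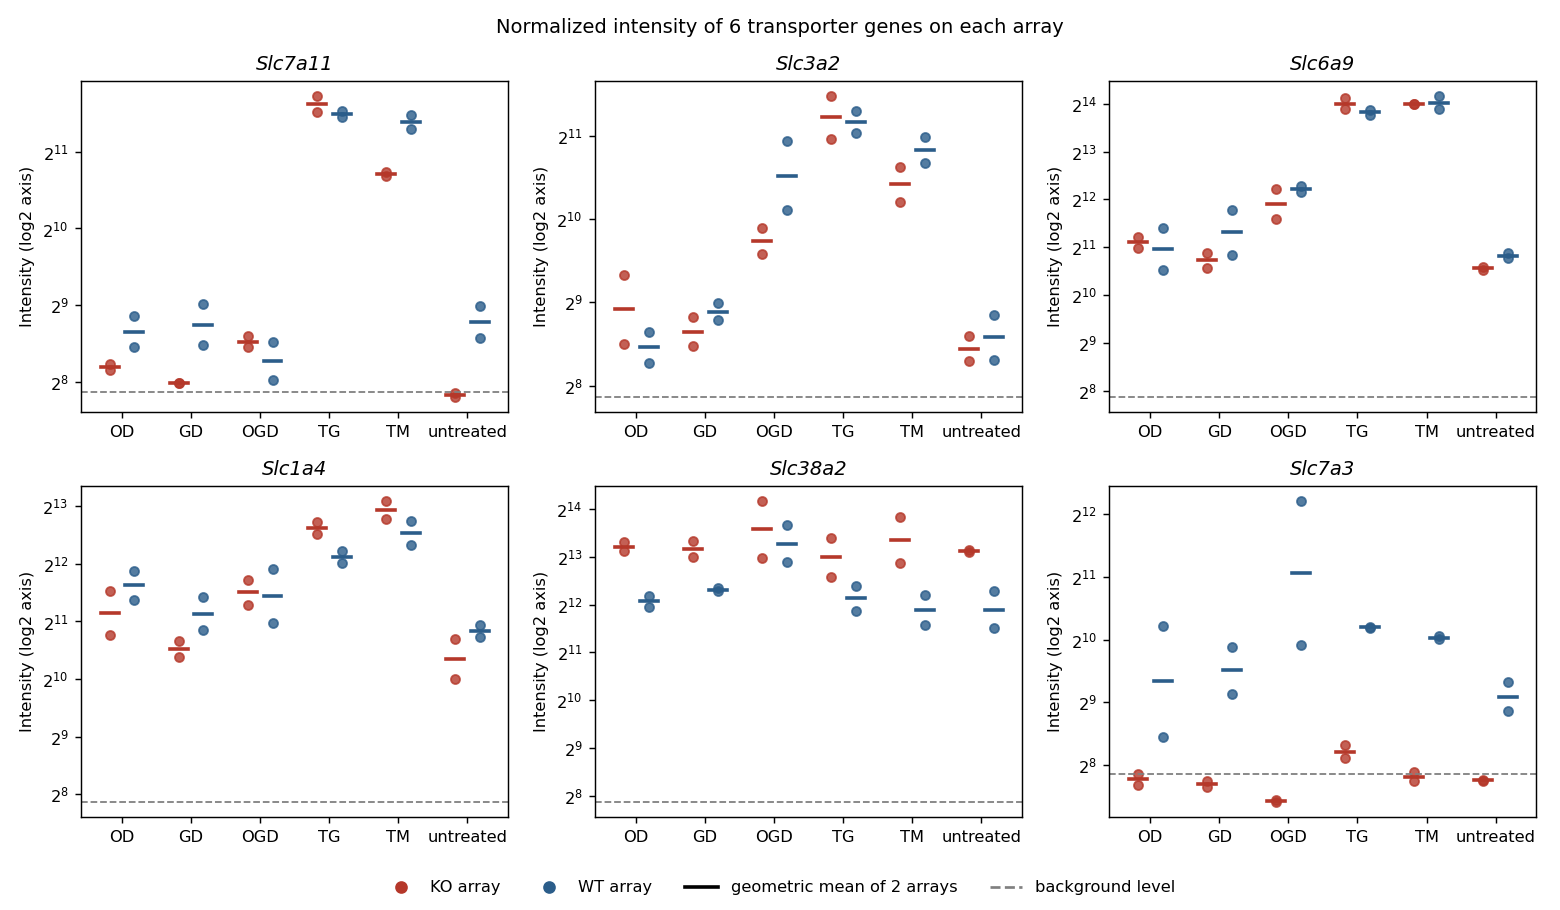
Normalized intensity (log2 axis) of Slc7a11, Slc3a2, Slc6a9, Slc1a4, Slc38a2 and Slc7a3 in each condition, with KO arrays in red left of WT arrays in blue. Each point is 1 array, each bar the geometric mean of 2 arrays, and the dashed line the background level of 233. Under TG and TM the first 4 genes stand above their untreated arrays in both genotypes, and Slc7a3 lies near the dashed line on KO arrays only.

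**Figure D2:**
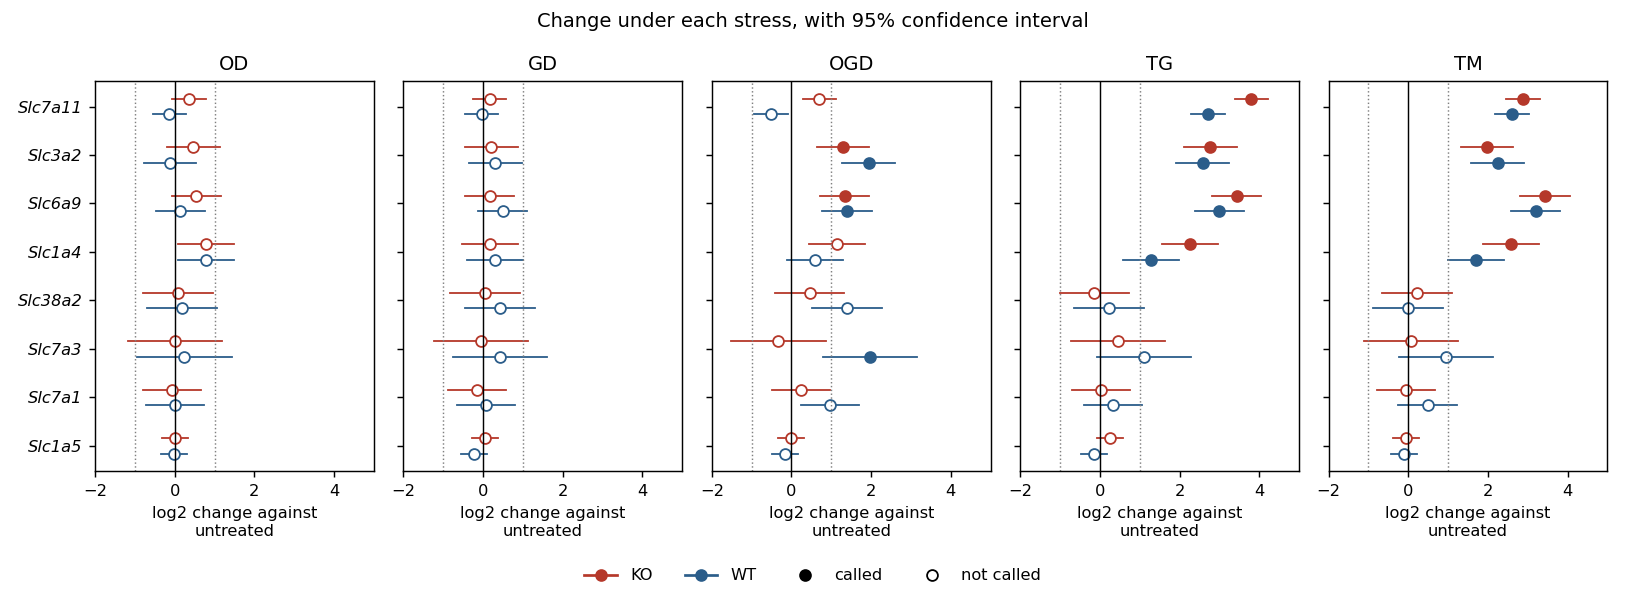
Log2 change of each of the 8 measured genes against untreated cells of the same genotype under OD, GD, OGD, TG and TM, KO in red above WT in blue, with 95% confidence intervals from the limma fit. Filled points were called, dotted lines mark a 2-fold change, and the filled points lie in the OGD, TG and TM panels only. A point that rests on a group below background is a fitted value, not a measured size.

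Slc7a11 had the largest change of the set under TG in KO cells. Its brightest probe (ILMN_2948143) read 2946 and 3393 under TG in KO cells and 1647 and 1702 under TM, against 232 and 222 in untreated KO cells, where neither array was above the background level. The WT arrays read 2811 and 2956 under TG and 2512 and 2851 under TM, against 509 and 381 in untreated WT cells. All 8 arrays under ER stress lay above all 4 untreated arrays. The rise in KO cells was at least 13.6-fold under TG and at least 7.20-fold under TM (limma adjusted p = 2.29e-08 and 7.37e-07), where the bound is the mean under stress over the background level. In WT cells it was 6.54-fold under TG (2.71 ± 0.20 on the log2 scale, adjusted p = 1.03e-06) and 6.08-fold under TM (2.60 ± 0.20 on the log2 scale, adjusted p = 1.51e-06).

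The bases before the annotated start site of Slc7a11 are shown because they hold a pair of matches to TGATGNAA, the core of the C/EBP-ATF elements through which ATF4 acts with C/EBP partners. The window runs over chr3:50443614-50443863 (GRCm38.p6, minus strand, from RefSeq), its last base is next to the start site, and the capitals mark the matches.
Slc7a11: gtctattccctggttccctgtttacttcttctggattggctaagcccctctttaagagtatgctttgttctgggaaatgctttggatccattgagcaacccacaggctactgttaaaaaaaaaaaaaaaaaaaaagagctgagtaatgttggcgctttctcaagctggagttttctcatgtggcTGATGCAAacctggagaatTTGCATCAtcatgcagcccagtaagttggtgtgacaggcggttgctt
The first match, TGATGCAA, lies at -66 to -59 from the start site, and the other, TTGCATCA, which is the same core on the opposite strand, at -47 to -40. Both strands of the 300-base windows around start sites (250 bases before and 50 after) were searched, and 3.97% of the 32851 windows in the table held at least 1 match and 0.07% at least 2. The window of Slc7a11 held no match to TGACNNNGC, the core of antioxidant response elements, which 12.4% of windows held. Windows were found for 6 of the 9 genes, 9 windows in all, and a match is a stretch of letters, not a measured binding site.

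The probes of Slc7a11 did not all move alike. A further pair of probes to the same RefSeq transcript rose under both ER stresses as well. Probe ILMN_2740738 read 1097 and 1011 under TG in KO cells and 822 and 655 under TM, against 213 and 219 untreated, and 1478 and 1266 under TG in WT cells and 1268 and 1165 under TM, against 335 and 239 untreated. Probe ILMN_2463432 was below the background level in untreated cells of both genotypes and rose at least 2.80-fold under TG and 1.84-fold under TM in KO cells, and at least 2.57-fold and 2.38-fold in WT cells. Over the 12 group means, which share their arrays, the 3 probes correlated at r = 0.91 to 0.97. Probe ILMN_2568074, designed on another cDNA, stayed between 189 and 345 on all 24 arrays, and the fifth probe was never above the background level.

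Under OGD these probes disagreed. The brightest read 386 and 351 in KO cells under OGD, against 232 and 222 in untreated KO cells, and 261 and 366 in WT cells under OGD, against 509 and 381 in untreated WT cells. In WT cells its difference was -0.51 ± 0.20 on the log2 scale (limma adjusted p = 0.14), with both OGD arrays below both untreated arrays. Probe ILMN_2740738 read 454 and 885 under OGD in WT cells, against 335 and 239 untreated, and was called higher (1.16 ± 0.25 on the log2 scale, adjusted p = 0.0115). Probe ILMN_2463432 read 202 and 269 under OGD in WT cells, against 156 and 172 untreated, where neither array was above the background level, and was not called (adjusted p = 0.0766). In KO cells under OGD the brightest probe was at least 1.58-fold higher (adjusted p = 0.0972) and probe ILMN_2740738 at least 1.55-fold higher (adjusted p = 0.189), and neither was called. In WT cells under OGD the arrays of the brightest probe lay below the untreated arrays, and those of the other 2 probes above them.

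**Figure D3:**
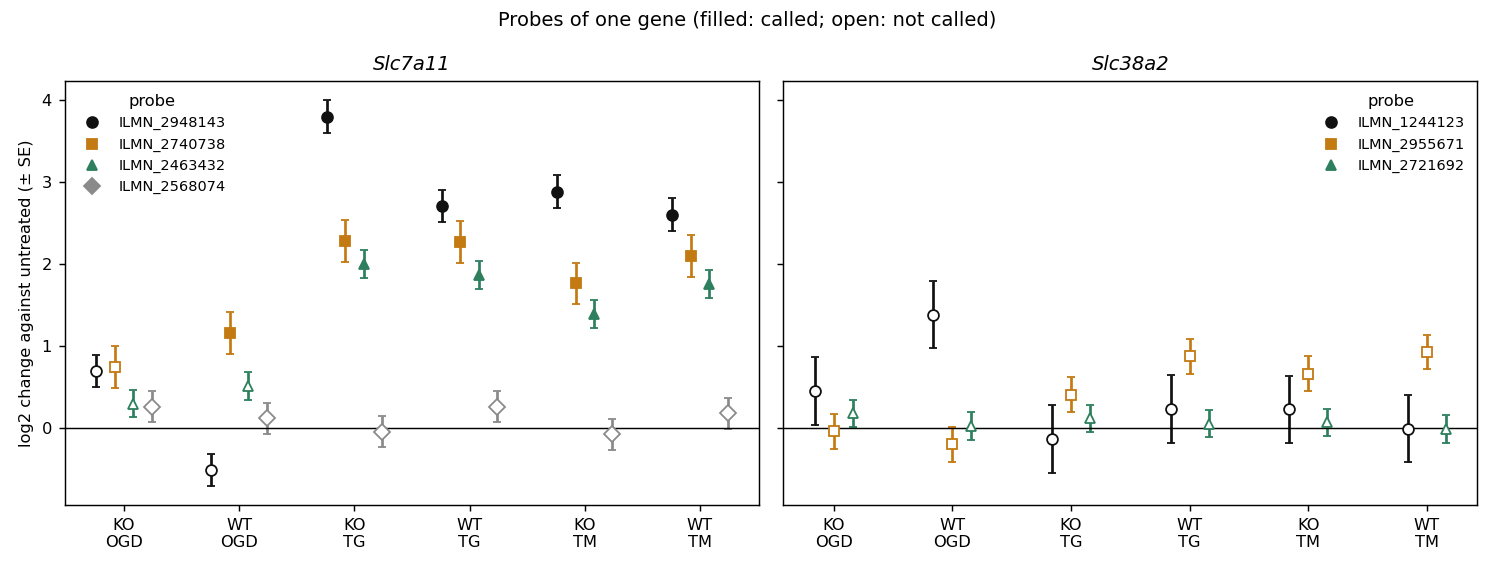
Log2 change against untreated cells of the same genotype (± SE of the fit) for each kept probe of Slc7a11 (left) and Slc38a2 (right) under OGD, TG and TM, KO left of WT in each stress. Filled points were called, and the WT OGD columns show the black and orange probes of each gene on opposite sides of 0. A point that rests on untreated arrays below background is a fitted value, not a measured size.

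Slc3a2, the shared heavy chain, rose under OGD, TG and TM in both genotypes. Its probe read 764 and 950.0 under OGD, 2846 and 1995 under TG and 1580.3 and 1183 under TM in KO cells, against 387 and 314 in untreated KO cells. In WT cells it read 1101 and 1953 under OGD, 2517 and 2101 under TG and 2026 and 1626 under TM, against 462 and 318 in untreated WT cells. No array of these 3 stresses overlapped the untreated arrays of its genotype, while OD and GD arrays did. The rise under TG was 6.84-fold in KO cells and 6.00-fold in WT cells (adjusted p = 3.42e-05 and 0.000123), and under TM 3.92-fold and 4.73-fold (adjusted p = 0.00149 and 0.000596). Under OGD it was 1.29 ± 0.31 on the log2 scale in KO cells (adjusted p = 0.0481) and 1.93 ± 0.31 on the log2 scale in WT cells (adjusted p = 0.00169). The call in KO cells under OGD was lost without any 1 of its 4 arrays, with the change at 1.14 without KO untreated replicate 2, 1.44 without KO untreated replicate 1, 1.45 without KO OGD replicate 1 and 1.13 without KO OGD replicate 2.

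Slc6a9, the glycine importer, had the largest change of the set under TG and TM in WT cells. Its probe read 3062 and 4769 under OGD, 15088 and 17699 under TG and 16271 and 16394 under TM in KO cells, against 1476 and 1545 in untreated KO cells. WT cells had 4579 and 4971 under OGD, 14962 and 13985 under TG and 15144 and 18301 under TM, against 1878 and 1747 untreated. The levels under TG and TM were close to each other in both genotypes and set well apart from OGD, which itself lay above untreated. TG and TM lasted 6 h and OGD 12 h, and WT OGD was on the other pair of chips. TG and TM were not tested against OGD. Slc6a9 rose 10.8-fold under TG and 10.8-fold under TM in KO cells (adjusted p = 2.62e-06 and 4.38e-06), and 7.99-fold and 9.19-fold in WT cells (adjusted p = 1.56e-05 and 9.06e-06). Under OGD the rise was 1.34 ± 0.29 on the log2 scale in KO cells (adjusted p = 0.0279) and 1.40 ± 0.29 on the log2 scale in WT cells (adjusted p = 0.00853). Without KO untreated replicate 1 or 2 or KO OGD replicate 2 the call in KO cells was lost (log2 changes of 1.31, 1.37 and 1.02), and in WT cells it was lost without WT untreated replicate 2 (1.35) or WT OGD replicate 2 (1.34). The other probe of Slc6a9 was at or below the background level on all 24 arrays. Of its 3 promoter windows none held TGATGNAA, and 2 held TGACNNNGC.

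Slc1a4, the ASCT1 exchanger, rose under TG and TM in both genotypes. In KO cells it read 5892 and 6744 under TG and 7002 and 8716 under TM, against 1028 and 1659 untreated, a rise of 4.83-fold and 5.98-fold (adjusted p = 0.00039 and 0.000307). In WT cells it read 4126 and 4767 under TG and 5152 and 6849 under TM, against 1967 and 1703 untreated, a rise of 2.42-fold and 3.25-fold (adjusted p = 0.0313 and 0.00822). All ER stress arrays lay above the untreated arrays. The KO response minus the WT response was 0.99 ± 0.47 on the log2 scale under TG and 0.88 ± 0.47 under TM (adjusted p = 0.78 and 0.801). The WT call under TG was lost without any 1 of its 4 arrays (log2 change of 1.38 without WT untreated replicate 1, 1.17 without WT untreated replicate 2, 1.38 with WT TG replicate 1 left out and 1.17 with replicate 2 left out), and the WT call under TM without WT untreated replicate 2 (1.59) or WT TM replicate 2 (1.49).

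Under OGD, Slc1a4 read 2506 and 3369 in KO cells, against 1028 and 1659 untreated, and 3834 and 1999 in WT cells, against 1967 and 1703 untreated. Under OD it read 1745 and 2938 in KO cells and 2653 and 3775 in WT cells, so the untreated arrays lay below these arrays too. The differences under OGD were 1.15 ± 0.33 on the log2 scale in KO cells (adjusted p = 0.102) and 0.60 ± 0.33 on the log2 scale in WT cells (adjusted p = 0.333), and neither was called. With the replicate number as a block, the KO difference under OGD was called (adjusted p = 0.0312), in a fit that called 1.41% of genes higher. The window of Slc1a4 is the only other one of the set with a match to TGATGNAA, on the opposite strand and across the annotated start site, so its last stretch is shown with the match in capitals (chr11:20332710-20332773, GRCm38.p6, minus strand, RefSeq, with 60 bases before the start site and 4 after it).
Slc1a4: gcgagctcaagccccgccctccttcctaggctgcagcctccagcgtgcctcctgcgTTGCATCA
The windows of Slc3a2, Slc38a2, Slc6a9 and Slc7a1 held no match to it.

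Slc38a2, the SNAT2 importer, was read differently by its probes. The brightest (ILMN_1244123) read 8086 and 18381 under OGD, 6146 and 10702 under TG and 7473 and 14558 under TM in KO cells, against 9008 and 8815 untreated. In WT cells it read 7573 and 13021 under OGD, 3736 and 5365 under TG and 3064 and 4687 under TM, against 4975 and 2912 untreated. The ER stress arrays overlapped the untreated arrays in both genotypes, while both WT OGD arrays, and narrowly both WT GD arrays (4987 and 5173), lay above the untreated ones. The WT OGD difference was 1.38 ± 0.41 on the log2 scale (adjusted p = 0.0513), and with the replicate number as a block it was called (adjusted p = 0.012), in a fit that called 2.58% of genes higher. Probe ILMN_2955671 read 3849.8 and 2526 under OGD in WT cells, 6649.8 and 6503 under TG and 6310.1 and 7372 under TM, against 3744 and 3429 untreated. By this probe ER stress arrays were higher than untreated ones (0.88 ± 0.21 on the log2 scale under TG, adjusted p = 0.0214, and 0.93 ± 0.21 on the log2 scale under TM, adjusted p = 0.0233), short of the 2-fold limit, and OGD was not (-0.20 ± 0.21 on the log2 scale). The same probe read 9578 and 9321 under TG and 11467 and 11062 under TM in KO cells, against 6971 and 7262 untreated. The remaining kept probe (ILMN_2721692) stayed between 188 and 296. The direction of Slc38a2 under stress differed by probe.

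Slc7a3, the arginine and lysine transporter CAT-3, was low in KO cells. It read 169 to 318 (median 215) over the 12 KO arrays and 348 to 4747 (median 996) over the 12 WT arrays. The KO arrays lay below the WT arrays in all 6 conditions for Slc7a3, a separation whose share over all genes was not counted. Its values were 169 and 174 in KO cells and 964 and 4747 in WT cells under OGD, 318 and 276 in KO cells and 1161 and 1183 in WT cells under TG, and 215 and 236 in KO cells and 1027 and 1064 in WT cells under TM. In the remaining conditions it read 232 and 204 in KO cells and 348 and 1195 in WT cells under OD, 214 and 201 in KO cells and 563 and 943 in WT cells under GD, and 215 and 216 in KO cells and 462 and 639.6 in WT cells untreated. On the KO arrays 3 values exceeded the background level, both TG arrays and 1 TM array. In bulk RNA, fewer cells with the transcript and less of it per cell cannot be told apart.

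Slc7a3 was called lower under OGD in KO cells, set against WT cells, by at least 9.20-fold (adjusted p = 0.000602), under TG by 3.96-fold (-1.98 ± 0.56 on the log2 scale, adjusted p = 0.0403) and under TM by 4.65-fold (-2.22 ± 0.56 on the log2 scale, adjusted p = 0.02). Of all genes, 1.98% were called lower in KO cells under OGD, 1.82% under TG and 2.05% under TM. Without any 1 of the 4 arrays of a comparison the TG and TM calls were lost (adjusted p of 0.153 to 0.188 under TG and 0.0934 to 0.129 under TM), with log2 differences of -2.09 to -1.88 under TG and -2.28 to -2.15 under TM. The OGD call held without any 1 array, and was lost when only the arrays compared entered the fit, where the TG and TM calls held. In untreated cells KO was at least 2.34-fold lower (adjusted p = 0.259), under OD at least 2.77-fold (0.144) and under GD at least 3.13-fold (0.0846), and none of these was called. With the replicate number as a block the GD difference was called (adjusted p = 0.0286), in a fit that called 1.82% of genes lower, and with a block within each pair of chips the OD difference was called as well (adjusted p = 0.0201).  Its other probe exceeded the background level on 2 of 24 arrays and reached 240 at most, and none of these calls was made with it, so the difference rests on 1 probe.

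In WT cells Slc7a3 was called higher under OGD (1.98 ± 0.56 on the log2 scale, adjusted p = 0.0398), from a pair of arrays that read 964 and 4747. The call was lost without WT OGD replicate 2 (log2 change of 0.83), WT untreated replicate 1 (1.74) or WT untreated replicate 2 (2.21), and the change was 3.13 without WT OGD replicate 1. WT arrays under TG and TM lay above the untreated arrays too, by 1.11 ± 0.56 on the log2 scale (adjusted p = 0.337) and 0.94 ± 0.56 on the log2 scale (adjusted p = 0.533), and were not called. The WT OGD arrays also differed in epithelial signal. The summed intensity of 4 measured epithelial markers, of 6 listed, was 7638 and 1884 on WT OGD replicates 1 and 2 and 5784 and 1584 on WT OD replicates 1 and 2, against 1139.8 and 930.4 in untreated WT cells and 1159 to 1237 in KO OGD cells. Krt19 was most of it under OGD and OD (7081 and 1230.2 under OGD, 5133 and 974 under OD and 502 and 247 untreated in WT cells). Epcam and Cldn4 had no kept probe. This signal was higher on replicate 1 of WT OGD, and Slc7a3 on replicate 2. On WT OGD replicates 1 and 2, the sum of 3 blood markers of 7 was 764 and 1246, and that of 3 endothelial markers of 6 was 555 and 690.4, in the same order as Slc7a3. The endothelial sum lay near background, with 0 of its 3 markers above the background level on replicate 1 and 2 on replicate 2. Of the blood markers, 2 were above it on each replicate. The sum of 3 muscle markers of 5 was 2626 and 729, in the opposite order. In untreated WT cells these sums were 824 and 635 for blood, 667 and 601 for endothelial and 1025 and 681 for muscle markers. The part of these signals in the Slc7a3 result was not tested.

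Slc7a1 (CAT-1) was dim. Its kept probe exceeded the background level on 8 of 24 arrays and no comparison was called. Under OGD it read 212 and 337 in KO cells, against 238 and 215 untreated, and 212 and 604 in WT cells, against 185 and 183 untreated, so that replicate 2 stood out under OGD in both genotypes. The WT difference was at least 1.54-fold (adjusted p = 0.107), and it was called without WT OGD replicate 1 (adjusted p = 0.000711), from 1 remaining OGD array. Slc1a5 (ASCT2) had 5 probes, of which 1 exceeded the background level on a single array, KO TG at 237, so its RNA could not be followed here.

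Between the genotypes, Slc7a3 was the 1 member called lower in KO cells and Slc38a2 the 1 member called higher, of 48 member by condition pairs. In untreated cells, OD and GD no member was called by limma, while 3.76%, 3.87% and 3.6% of all genes were, in either direction. At an unadjusted p under 0.05, 8 of these 24 pairs passed, those of Slc7a3 and Slc7a11 in all 3 conditions and of Slc38a2 in untreated cells and OD. Slc38a2 read 7473 and 14558 in KO cells and 3064 and 4687 in WT cells under TM, a 2.75-fold difference (adjusted p = 0.0397), where 3.58% of genes were called higher. The KO arrays were above the WT arrays in 5 of 6 conditions by this probe, and in all 6 by probe ILMN_2955671, which was called higher in KO cells under OGD (1.15 ± 0.21 on the log2 scale, adjusted p = 0.00287) and had a difference of 0.72 ± 0.21 on the log2 scale under TM. How many of all genes had arrays separated in this way was not counted, and Slc1a5, at background, had them in 2 of 6 conditions. The TM call of Slc38a2 was lost without WT TM replicate 1 (log2 difference of 1.15), WT TM replicate 2 (1.77) or KO TM replicate 2 (0.98). With the replicate number as a block, Slc38a2 was also called higher in KO cells untreated (1.23 ± 0.34 on the log2 scale, adjusted p = 0.035) and under OD (1.14 ± 0.34 on the log2 scale, adjusted p = 0.0485), in fits that called 2.79% and 2.62% of genes higher.

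By its brightest probe, Slc7a11 read lower on KO than on WT arrays in untreated, GD and OD cells. Its brightest probe read 232 and 222 in KO cells and 509 and 381 in WT cells untreated, 253 and 254 in KO cells and 517 and 355 in WT cells under GD, and 285 and 300.0 in KO cells and 350.2 and 462 in WT cells under OD, with no overlap in any of the 3. The difference untreated was at least 1.89-fold (adjusted p = 0.00835) and under GD -0.76 ± 0.20 on the log2 scale (adjusted p = 0.0382), both under the 2-fold limit. The untreated difference was called without WT untreated replicate 2, and the GD difference without WT GD replicate 2 (-1.03 on the log2 scale). Under TM it was -0.68 ± 0.20 on the log2 scale (adjusted p = 0.0472), and under TG 0.13 ± 0.20 on the log2 scale (adjusted p = 0.832), where the arrays overlapped. Probe ILMN_2740738 was not called untreated (adjusted p = 0.602) and gave -0.73 ± 0.25 on the log2 scale under TM (adjusted p = 0.103). By that probe the difference was -0.16 on the log2 scale under GD and -0.06 under OD, and neither was called. Slc3a2, its partner, differed by -0.14 ± 0.31 on the log2 scale untreated (95% confidence interval -0.80 to 0.52) and by -0.78 ± 0.31 on the log2 scale under OGD (adjusted p = 0.154), where without WT OGD replicate 1 it was called lower (-1.20, adjusted p = 0.0317). Slc6a9 differed by 0.18 under TG (interval -0.44 to 0.79) and -0.03 under TM (interval -0.65 to 0.59). Untreated KO and WT cells also differed in the sum of 11 fibroblast markers, 129187 to 158308 in KO and 90585 to 97681 in WT cells. The sum of 2 measured neural markers of 6 was 4024 to 4476 in KO and 1900.2 to 2775 in WT cells, and the part of these markers in the differences was not tested.

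**Figure D4:**
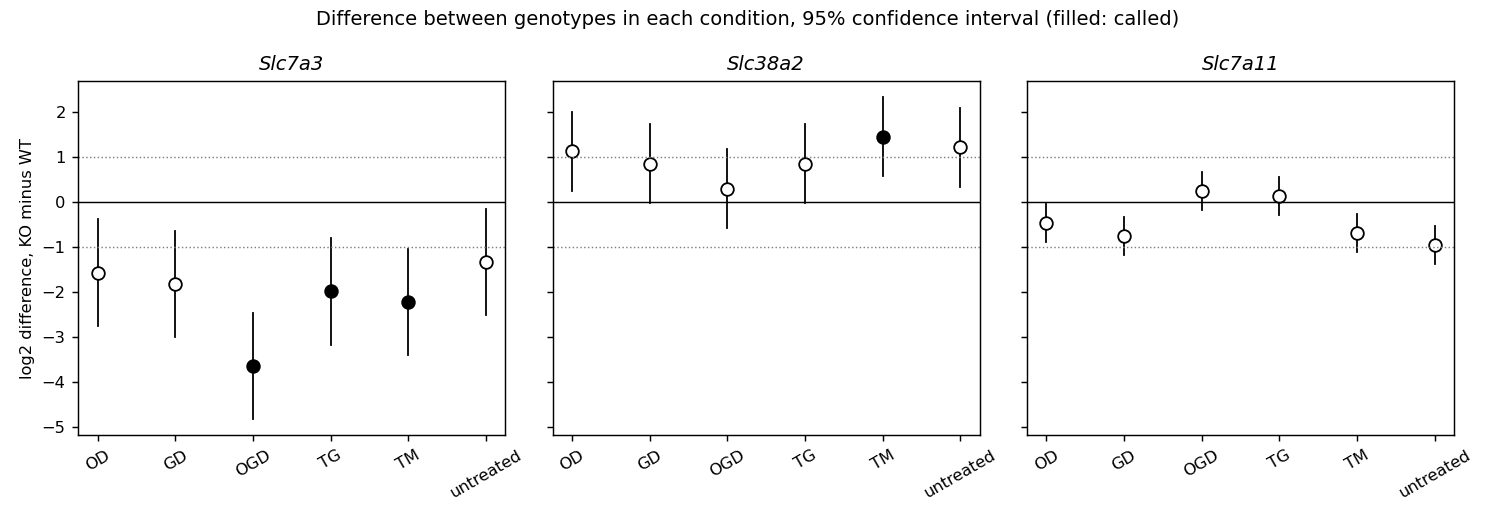
Log2 difference between KO and WT cells in each condition for Slc7a3, Slc38a2 and Slc7a11, with 95% confidence intervals from the limma fit. Filled points were called, dotted lines mark a 2-fold difference, and all 6 points of Slc7a3 lie below 0 while all 6 of Slc38a2 lie above it. For Slc7a3 the points other than TG and TM, and for Slc7a11 the untreated point, rest on KO arrays below background and are fitted values.

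The response to a stress was not called different between KO and WT cells for any member by limma, of 40 member by stress pairs, and 3 passed at an unadjusted p under 0.05. The same test called 0.0224% of genes for OGD, 0.478% for TG, 0.628% for TM, 0% for OD and 0% for GD. The 3 were Slc7a11 under TG (adjusted p = 0.14) and OGD (adjusted p = 0.394) and Slc7a3 under OGD (adjusted p = 0.874), the last of which was called without WT OGD replicate 1 (adjusted p = 0.0164). Those of Slc7a11 were by its brightest probe, where the fitted difference was above 0 under both stresses. By probe ILMN_2740738 it was 0.01 on the log2 scale under TG and -0.42 under OGD, and neither was called. None of these fitted values is a measured size, because untreated KO cells were not above the background level for either gene and KO OGD cells were not for Slc7a3. For genes above background in every group the intervals leave room for sizeable differences: they ran over -0.44 to 1.31 for Slc6a9 and -0.75 to 1.12 for Slc3a2 under TG, and -1.58 to 0.29 for Slc3a2 under OGD. For OGD and OD, the response crosses chips in KO cells but not in WT cells. In those tests a chip effect and a difference in response cannot be told apart.

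OGD differs from OD by a medium that lacks glucose and, by the culture methods, holds dialyzed serum, and within each genotype the OGD and OD arrays shared chips. In WT cells Slc3a2 was 4.16-fold higher under OGD than under OD (1101 and 1953 under OGD, against 402 and 309 under OD, adjusted p = 0.00165) and Slc6a9 2.39-fold higher (4579 and 4971 under OGD, against 1468 and 2703 under OD, adjusted p = 0.0185), 2 of 8 members where 1.42% of genes were called higher. The Slc6a9 call was lost without WT OD replicate 1 (log2 change of 0.82) or WT OGD replicate 2 (1.20). Both calls were lost when only the arrays compared entered the fit. Slc7a11 probe ILMN_2740738 was called higher too (1.29 ± 0.25 on the log2 scale, adjusted p = 0.00811). In the fit blocked on replicate number, Slc7a3 (1.73 ± 0.48 on the log2 scale, adjusted p = 0.0272) and Slc38a2 (1.21 ± 0.34 on the log2 scale, adjusted p = 0.0284) were called too, in a fit that called 1.86% of genes higher. In KO cells no member was called by limma (2 at an unadjusted p under 0.05, 0.366% of genes in either direction), with Slc3a2 at 0.82 ± 0.31 on the log2 scale (764 and 950.0 under OGD, against 643 and 363 under OD) and Slc6a9 at 0.80 ± 0.29 on the log2 scale.

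Between TM and TG no member was called by limma in KO cells, where 0.404% of genes were and 2 members passed at an unadjusted p under 0.05, nor in WT cells, where 0% of genes were called and 0 members passed. Slc7a11 came nearest, with 1647 and 1702 under TM, against 2946 and 3393 under TG in KO cells (-0.92 ± 0.20 on the log2 scale, adjusted p = 0.0509). KO OD arrays shared the chips of the KO TG and TM arrays, and against them the same 4 genes were called higher, with 2.97% of genes called higher under TG and 1.67% under TM. Under TG Slc7a11 was 10.8-fold, Slc6a9 7.43-fold, Slc3a2 4.93-fold and Slc1a4 2.78-fold above OD, and under TM 5.73-fold, 7.43-fold, 2.83-fold and 3.45-fold. These comparisons were chosen after the chip layout was known. In them OD is itself a stress, of 12 h against 6 h for TG and TM, and not an untreated control. No unstressed WT array shared the chips of the WT TG and TM arrays.

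Some of the other amino acid transporter genes were called as well. Of 44 other amino acid transporter genes, 29 were measured. In KO cells 1 of them was called higher under OGD, 0 under TG and 0 under TM, and in WT cells 3 under OGD, 0 under TG and 1 under TM, with medians of 0.05, -0.07 and 0.01 in KO cells and -0.01, -0.04 and 0.01 in WT cells. Of all genes, 0.994% were called higher under OGD, 3.01% under TG and 1.82% under TM in KO cells. In WT cells these shares were 2.17%, 2.11% and 1.55%. Slc38a7, a lysosomal glutamine carrier, was called under OGD in KO (1.07 ± 0.24) and WT cells (1.04 ± 0.24) and under TM in WT cells (1.12 ± 0.24). Slc7a2, the CAT-2 transporter of arginine, and Ctns, the lysosomal cystine exporter, were called higher under OGD in WT cells (1.21 ± 0.19 and 1.26 ± 0.28). Slc6a6, the taurine transporter, fell by 2.52 ± 0.52 on the log2 scale under TG in KO cells, where 2.31% of genes were called lower. Slc1a3, a glutamate transporter, was called higher in KO than in WT cells untreated (3.17 ± 0.86), under OD (3.29 ± 0.86) and under TM (3.52 ± 0.86), and Slc43a1, a neutral amino acid transporter, was called lower untreated (-1.29 ± 0.26), under GD (-1.25 ± 0.26), TG (-1.01 ± 0.26) and TM (-1.16 ± 0.26).

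Genes of the amino acid response, among them its regulators, were also called higher under OGD, TG and TM. Of 18 measured genes of this list, 6 were called higher under OGD, 13 under TG and 12 under TM in KO cells, and 9, 13 and 13 in WT cells. Under OD the counts were 2 in KO and 1 in WT cells, and under GD 0 in both. The median log2 change under TG was 1.96 in KO and 1.56 in WT cells. The largest changes under TG in KO cells were those of Ddit3 (5.50 ± 0.40), Trib3 (5.14 ± 0.28), Chac1 (4.86 ± 0.28) and Atf3 (3.82 ± 0.16), which encode CHOP, a brake on Akt, a glutathione-degrading enzyme and a stress transcription factor. Under OGD in WT cells they were those of Ddit3 (4.09 ± 0.40), Trib3 (3.47 ± 0.28), Chac1 (2.29 ± 0.28) and Ddit4 (2.26 ± 0.32), the last an inhibitor of mTORC1, and 1 gene of the list was called lower. For NRF2, another known activator of Slc7a11 in mouse cells, 12 of 14 listed targets were measured. Hmox1 was the 1 target called higher, under TG in KO cells (3.25 ± 0.59) and under OGD (2.81 ± 0.59), TG (3.32 ± 0.59) and TM (2.74 ± 0.59) in WT cells, and the median over the list was -0.02 under TG in KO cells and 0.40 in WT cells. The part of ATF4 or NRF2 in the rise of Slc7a11 was not tested.

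**Figure D5:**
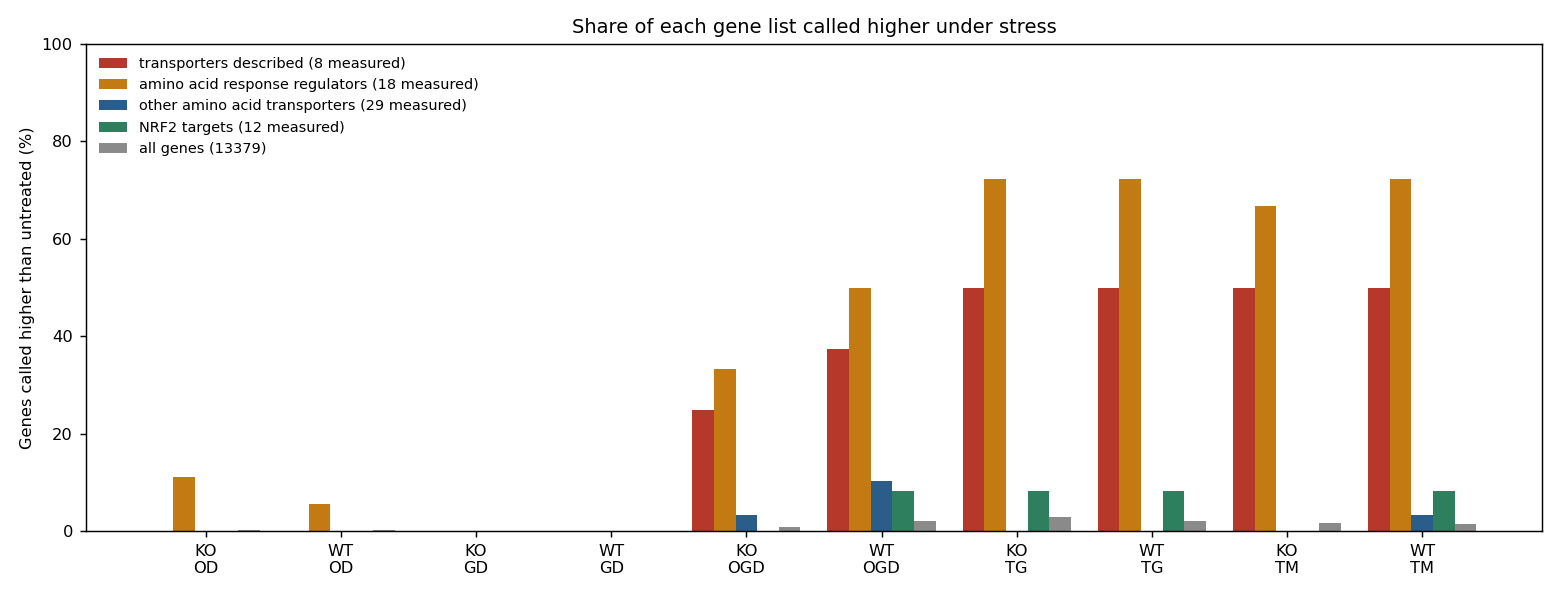
Percent of the measured genes of 4 lists and of all genes (grey) called higher than untreated cells of the same genotype, for each stress with KO left of WT. The 8 transporters described here (red) and the 18 genes of the amino acid response (orange) stand above the other bars under OGD, TG and TM, and the 29 other transporters (blue) stay at 0 to 3 genes.

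The genes whose 12 group means ran most like those of each member were sought among 4828 non-member genes with a span of at least 1 on the log2 scale, as a description over points that share arrays and chips. Pearson's r was highest with Slc6a9 for Acot2 (0.987), Herpud1 (0.981) and Sesn2 (0.979), which encode an acyl-CoA thioesterase, a factor of ER-associated degradation and sestrin 2. With Slc3a2 it was highest for Cox6a2 (0.992), Ppp1r15a (0.983) and Gadd45a (0.981), of which Ppp1r15a encodes GADD34, the subunit that directs dephosphorylation of eIF2α. With Slc1a4 it was highest for Atf5 (0.970), Myo6 (0.968) and Dync2li1 (0.953), of which Atf5 encodes a transcription factor of the ATF4 family. With Slc7a11 these were Leprotl1 (0.972), Fetub (0.970) and Crls1 (0.970). With Slc7a3, high on WT arrays only, they were Krt12 (0.972), Cryba4 (0.966) and Pkp1 (0.965), genes of corneal keratin, a lens crystallin and plakophilin 1. With Slc38a2 they were Gdf1 (0.952), Tmem201 (0.946) and Hsd3b7 (0.942), by its brightest probe alone. For the dim Slc7a1 they were Map3k2 (0.948), Socs7 (0.909) and Nus1 (0.907), and Slc1a5, at background, gave no meaningful order.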

How the data were processed

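RNA of KO and WT MEFs was hybridised to Illumina Mouse-6 BeadChips, 24 arrays in 12 groups of 2. The deposited values are linear intensities that the authors normalized in GenomeStudio (version not given in the sources used here), so that all arrays have nearly the same distribution, with no background subtraction. The un-normalized table was not used, because its 24 signal columns and 24 detection p-value columns match no sample label. The number of arrays limits the precision. No file held the authors' own comparisons.

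Values were taken to log2. The mode of the low signals (181) and their spread gave a background level of 233, and probes above it on at least 1 array were kept (26624 of 45281, 58.8%). Genes were named from GEO's platform annotation: 34885 probes have 1 gene symbol, 18 several and 10378 none, and 34807 were matched to RefSeq by gene ID. The gene-level counts use the kept probe with the highest mean signal (13379 genes). limma 3.58.1 in R 4.3.3 fitted 12 group means, with 12 residual and 3.43 prior degrees of freedom, and p-values were adjusted over all kept probes in each of 25 comparisons and in 2 added after the data were seen (KO TG and KO TM against KO OD). The scripts were tested on simulated data.

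Arrays carry replicate numbers in the labels. Same-numbered arrays deviated together from their group means in all 66 pairs of groups (r of 0.136 to 0.764, median 0.376), so the numbers were taken to pair the arrays, and a fit with the number as a block was run beside the unblocked one. Alternatives were other filters and background levels, subtraction of array medians or of background, a fit on the compared arrays alone, an intensity trend, array weights, the next brightest probe, other call rules and each array left out. A block within each pair of chips was added after the data were seen.

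All 9 members with every probe were to be named, with Siah1a and Siah2, the 3 genes most like each member, and up to 4 called genes of each other list in a comparison. The members and lists were chosen with earlier results of these data known. Promoter windows came from RefSeq (GRCm38.p6), and Slc7a3, Slc1a5 and Slc7a5 were not among those used here.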

Additional observations from a re-analysis of the deposited data

How the results depend on the processing

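Of 27 called member by comparison pairs, none changed sign under any alternative, and all kept their call with the replicate number as a block and with array medians subtracted. Calls at an unadjusted p with 2-fold, or with no fold threshold, only relax the rule on the same fit. They could lose no pair and can only add some. The pairs lost were 8 in the fit on the compared arrays alone, 5 with the next brightest probe, 4 with no filter on dim probes, 4 with background subtracted, 2 with array weights, 1 at the looser background level and 1 with the intensity trend. The fit on the compared arrays alone lost OGD calls, 7 of them of Slc3a2, Slc6a9 and Slc7a3 against untreated or OD cells and 1 of Slc7a3 between genotypes, and the cause was not tested. The 5 lost with the next brightest probe were all 4 calls of Slc7a3 and that of Slc38a2.

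Pairs called higher in KO than in WT cells numbered 1, and 0 with no filter or with background subtracted, 3 with the replicate block, 3 at an unadjusted p, and 3 with the block within each pair of chips. Pairs called lower numbered 3, and 7 with background subtracted, 0 with the next brightest probe, 6 at an unadjusted p, 6 with no fold threshold, and 5 with the block within each pair of chips. The replicate block and array weights each added Slc7a3 under GD. Its TG pair was lost with no filter, and its OGD pair in the fit on the compared arrays alone. Response differences between genotypes numbered 0, and 1 with background subtracted (Slc7a11 under OGD), 1 with array weights (Slc7a11 under TG) and 3 at an unadjusted p. Those of Slc7a11 were by its brightest probe. Pairs called under OGD against OD numbered 2, and 0 in the fit on the compared arrays alone, 4 with the replicate block, 1 with array weights, 4 at an unadjusted p, and 4 with the block within each pair of chips. The next brightest probe added Slc7a11 in WT cells to them. The cause of these shifts was not tested. With background subtracted, Slc7a11 was called higher under OGD in KO cells and lower in KO than in WT cells untreated and under GD. Subtraction widens log2 differences near background by construction, and its part in these calls was not tested. The replicate block, a paired fit, gave 12 calls against untreated cells in WT and 11 in KO, against 11 and 10 without it, and changed no call beyond those given with the results.

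Leaving out each array in turn gave 8 to 10 calls against untreated cells in KO and 7 to 13 in WT, 0 to 1 higher and 1 to 7 lower in KO than in WT cells, 0 to 1 response differences, 1 to 5 under OGD against OD and 0 to 0 under TM against TG. The highest counts of calls in WT cells, of lower calls and of OGD against OD came without WT OGD replicate 1. The lowest counts came without WT untreated replicate 2 for WT cells, without any 1 TM array for lower calls, without KO untreated replicate 1 or 2, WT TM replicate 1 or 2 or KO TM replicate 2 for higher calls, and without WT OD replicate 1 or WT OGD replicate 2 for OGD against OD. Duplicate arrays, the chip layout and signals near background for Slc7a1, Slc1a5, KO Slc7a3 and untreated KO Slc7a11 limit what could be shown.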

Other observations

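Some genes of the other lists differed between genotypes in ways not described above. Chac1, which encodes a glutathione-degrading enzyme, was called lower in KO than in WT cells untreated (-1.15 ± 0.28 on the log2 scale), under OGD (-1.13 ± 0.28) and under GD (-1.13 ± 0.28). Cebpg, which encodes a C/EBP partner of ATF4, was called lower under OGD (-1.18 ± 0.23), and Nupr1, a stress-induced chromatin protein, under GD (-1.63 ± 0.40). Of the NRF2 targets, Osgin1, an oxidative stress growth inhibitor, was called higher in KO cells untreated (1.36 ± 0.24), under OD (1.24 ± 0.24), GD (1.22 ± 0.24) and OGD (1.21 ± 0.24). Atf3 had a smaller response to TM in KO than in WT cells (difference of -1.17 ± 0.22), and was lower under TM than under TG in KO cells (-1.61 ± 0.16).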
